A study of Caenorhabditis elegans with 9 samples.

Results

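The moulting factors described here are 9 genes of *C. elegans* that act in moulting and cuticle renewal, namely *mlt-7*, *mlt-8*, *mlt-9*, *mlt-10*, *mlt-11*, *noah-1*, *noah-2*, *nhr-23* and *nhr-25*. They were chosen by name, by a rule that uses no measured value, though with earlier results of these data known. The array's annotation assigns 18 of 22625 probe sets to them, and 17118 genes in all are represented by probe sets that match 1 gene. Whole-worm RNA of the Bristol N2 wild type was measured at 3 ages, with 3 arrays each, at the L4 larval stage (the last larval stage), at Day 6 and at Day 15 of adulthood. All populations were synchronized at the L1 stage and grown at 20°C on *E. coli* OP50. The adults had been moved at L4 to plates with 0.05 mg/ml FUdR, a drug that keeps their eggs from hatching, and the L4 animals had not been exposed to it. Adult against larva and FUdR against no FUdR therefore cannot be told apart in any comparison with L4.

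Moulting is the replacement of the nematode's cuticle at the end of each larval stage. The epidermis detaches from the old cuticle, secretes a new one beneath it and sheds the old one with the help of secreted proteases and their inhibitors, while peroxidases cross-link the new matrix. The cycle is paced by nuclear hormone receptors of the epidermis, among them NHR-23 and NHR-25, whose insect relatives DHR3 and Ftz-F1 act in the ecdysone cascade of moulting. Adults do not moult.

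Values are log2 expression values as the authors normalized them, and they compare one gene between arrays, not different genes with each other. Values under 4 lie near the background of this array. Each gene is represented by its probe set with the highest mean, and 8 of the 9 moulting factors reached a mean of 4 in at least 1 age and were tested, together with 11758 genes in all. The exception was *nhr-25*. Of the 18 probe sets, 12 reached this mean. A gene was called where its adjusted p (limma, 1 fit of all 9 arrays, Benjamini-Hochberg over the genes tested) fell below 0.05 with a change of 2-fold or more, and "rose" and "fell" are used only of called genes. Where the lower mean lay under 4, the fold was computed with values under 4 set to 4 and is a minimum ("at least"). Precision is limited by the small number of arrays.

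The median of an array ranged from 5.42 to 5.73 and its share of probe sets at 4 or above from 59.84% to 61.55%. Arrays of the same age correlated at r of 0.985 or more at Day 6 and Day 15, across 14234 probe sets, whereas the L4 arrays correlated at 0.896 (replicates 1 and 2), 0.932 (replicates 2 and 3) and 0.970 (replicates 1 and 3). The label L4 was checked against the adult stage markers *col-19*, a collagen of the adult cuticle, and the yolk protein genes *vit-2*, *vit-5* and *vit-6*. These markers did not set the L4 arrays apart from the Day 6 adults, for a cause that was not tested. The mean value of these markers was 13.03 to 13.19 on the L4 arrays, 13.13 to 13.25 at Day 6 and 10.90 to 11.68 at Day 15. *col-19* alone stood at 12.75, 13.11 and 12.93 on the L4 arrays. The germline markers, which include genes of growing oocytes, averaged 8.16, 10.30 and 9.19 on L4 replicates 1, 2 and 3, between 10.89 and 11.10 at Day 6 and between 10.97 and 11.17 at Day 15. L4 replicate 2 was thus the L4 array nearest to the adults in the germline markers, and changes against L4 are given with and without it.

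Most moulting factors were highest on the L4 arrays and low in adults of both ages. Of the 8 tested, 6 fell at Day 6 relative to L4 (*mlt-7*, *mlt-8*, *mlt-9*, *mlt-10*, *mlt-11* and *noah-2*), *nhr-23* rose, and *noah-1* was not called. For comparison, 24.6% of all genes tested were called lower and 29.3% higher at Day 6. At Day 15 relative to L4, 7 fell and *nhr-23* rose, against 26.7% of all genes tested called lower and 32.3% called higher. At both adult ages, 6 of the 8 were lower and *nhr-23* higher with no overlap between the arrays, as were 32.6% (lower) and 39.6% (higher) of all genes tested at Day 6, and 32.5% and 41.1% at Day 15. Relative to L4, the 8 had a median change of -2.55 at Day 6 and -2.73 at Day 15, beside 0.17 and 0.23 over all genes tested. At Day 15 relative to Day 6 it was -0.56, beside 0.00. In that comparison, 5 of the 8 were lower and 1 higher with no overlap, beside 33.5% and 34.5% of all genes tested. Both adult ages were set against the same L4 arrays. The counts were the same without L4 replicate 2, where 26.9% and 28.1% of the genes tested were called lower. In RNA of whole worms, a smaller epidermal share of the RNA and less of a transcript per epidermal cell cannot be told apart.

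**Figure D1:**
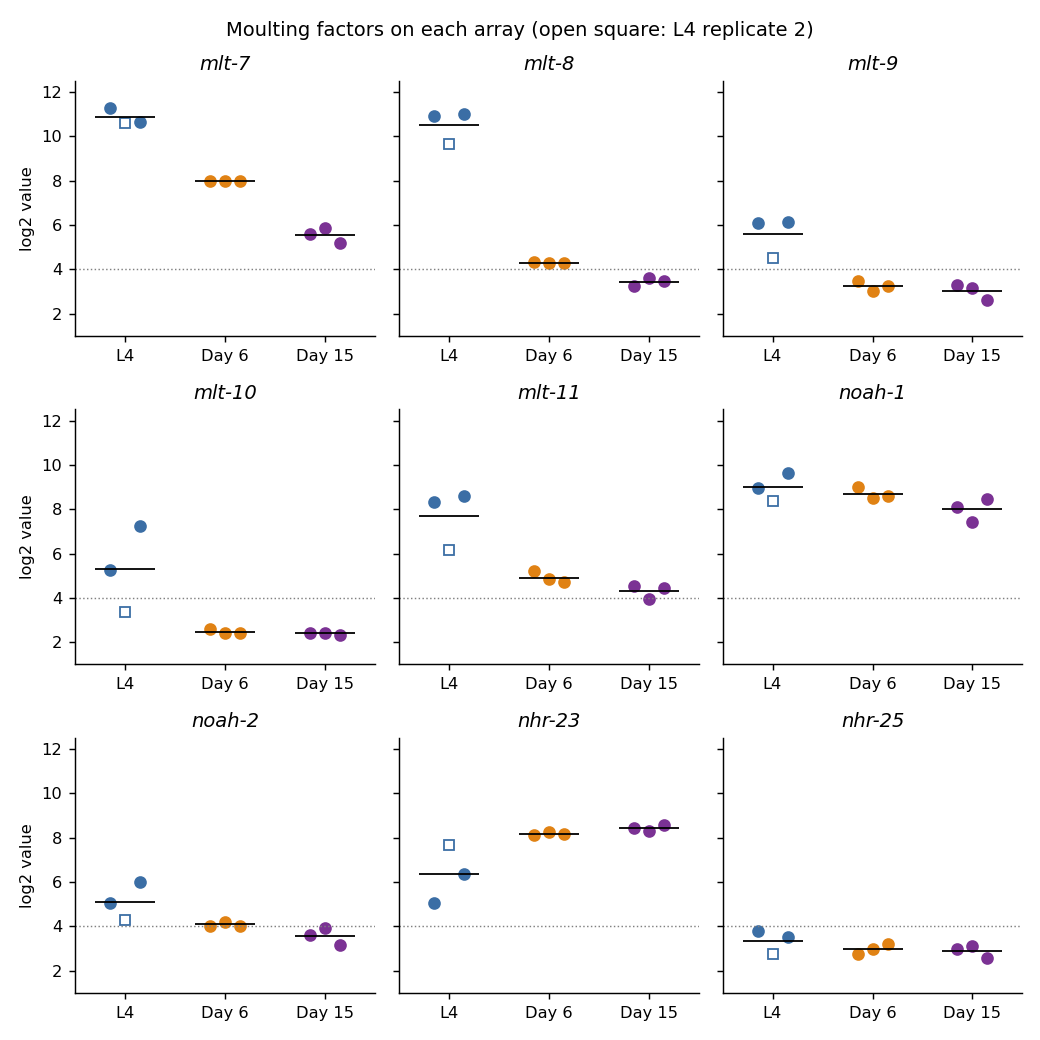
Log2 value (vertical axis) of the 9 moulting factors on each array at L4, Day 6 and Day 15, with 1 point per array, a black line at the mean of each age and a dotted line at 4, and the open square is L4 replicate 2. The 5 mlt genes sit lower on every adult array than on every L4 array, *nhr-23* sits higher, and L4 replicate 2 lies at the adult side of the other L4 arrays in most panels.

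The cross-linking enzyme MLT-7 is a haem peroxidase of the cuticle. *mlt-7* (ZK430.8) had log2 values of 11.30, 10.60 and 10.67 on the L4 arrays, 7.97 on each of the 3 Day 6 arrays, and 5.62, 5.88 and 5.18 on the Day 15 arrays. The ages did not overlap, and the values stepped down at both adult ages. *mlt-7* fell by 2.89 on the log2 scale at Day 6 relative to L4 (SE 0.25, adjusted p = 1.28e-05), which is 7.4-fold, and by 5.30 at Day 15 relative to L4 (SE 0.25, adjusted p = 2.34e-07), which is 39.3-fold. It was the only moulting factor called between the adult ages, falling by 2.41 at Day 15 relative to Day 6 (SE 0.25, adjusted p = 5.87e-05), or 5.31-fold. For that comparison, 17% of all genes tested were called lower and 16.4% higher. Leaving out L4 replicate 2 gave changes of -3.02 at Day 6 and -5.42 at Day 15 relative to L4. The main probe set is marked in the array's naming (_s_at) as matching more than 1 transcript. The main probe sets of *mlt-11* and *noah-2* carry the same mark, and that of *mlt-9* the mark _x_at. The other probe set of *mlt-7*, which has no such mark, stayed between 1.09 and 3.29 on all arrays and was not tested. Whether the signal of the main probe set is specific to *mlt-7* was not tested. With the mean of both probe sets, the changes of *mlt-7* were -1.87, -3.35 and -1.48, all still called.

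*mlt-8* (W08F4.6), a gene required for larvae to complete moulting, showed the largest change relative to L4 among the tested members. Its log2 values were 10.92, 9.65 and 11.02 on the L4 arrays, 4.34, 4.27 and 4.27 at Day 6, and 3.24, 3.60 and 3.47 at Day 15. Every L4 array lay far above every adult array, and the Day 15 arrays all lay below those of Day 6, though under 4. At Day 6 *mlt-8* fell by 6.24 relative to L4 (SE 0.34, adjusted p = 1.03e-06), or 75.4-fold. At Day 15 it fell by 7.09 relative to L4 (adjusted p = 2.64e-07), which is at least 92.4-fold lower with values under 4 set to 4. The change at Day 15 relative to Day 6 was -0.86 (SE 0.34, adjusted p = 0.0667) and was not called. When L4 replicate 2 was left out, the changes relative to L4 were -6.68 and -7.53.

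*mlt-9* (F09B12.1), likewise required for moulting, had log2 values of 6.08, 4.52 and 6.16 on the L4 arrays, 3.48, 3.05 and 3.25 at Day 6, and 3.28, 3.17 and 2.62 at Day 15. All adult values were under 4 and those of the adult ages overlapped. *mlt-9* fell by 2.33 at Day 6 (SE 0.42, adjusted p = 0.00111) and by 2.56 at Day 15 (SE 0.42, adjusted p = 0.00055) relative to L4, in each case at least 3.00-fold lower. Its other probe set, between 2.27 and 2.85 on the adult arrays and at 5.06, 3.71 and 5.62 on the L4 arrays, was also called lower at both adult ages, with changes of -2.09 and -2.38. The probe sets of a gene were hybridised with the same RNA and are not replicates. The change at Day 15 relative to Day 6 was -0.24 (adjusted p = 0.689). Without the second L4 array, the changes of the main probe set relative to L4 were -2.86 and -3.10.

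*mlt-10* (C09E8.3) encodes the founding member of a nematode protein family and is expressed in the epidermis during moults. It had log2 values of 5.26, 3.37 and 7.25 on the L4 arrays, 2.60, 2.40 and 2.40 at Day 6, and 2.42, 2.43 and 2.35 at Day 15. The L4 arrays spread over nearly the whole distance between the ages, while the 6 adult arrays lay together near background. *mlt-10* fell by 2.83 at Day 6 relative to L4 (SE 0.77, adjusted p = 0.0102) and by 2.89 at Day 15 (SE 0.77, adjusted p = 0.00839), at least 2.83-fold lower in both. With values under 4 set to 4 before the fit, neither call held (adjusted p = 0.0748 and 0.071), and the methods' t-test, at unadjusted p = 0.0654 and 0.0612, called neither. The changes at Day 6 and Day 15 were -3.79 and -3.86 without L4 replicate 2, and -1.85 and -1.92 without L4 replicate 3. The other probe set followed the same order, between 1.64 and 1.91 on the adult arrays and at 2.77, 2.28 and 3.27 on the L4 arrays, but stayed under 4 and was not tested.

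*mlt-11* (W01F3.3) encodes a protein with Kunitz-type protease inhibitor domains. Its log2 values were 8.33, 6.14 and 8.59 on the L4 arrays, 5.20, 4.84 and 4.70 at Day 6, and 4.52, 3.96 and 4.44 at Day 15. No array of one age overlapped with those of another. *mlt-11* fell by 2.77 at Day 6 (SE 0.57, adjusted p = 0.00226), or 6.84-fold, and by 3.38 at Day 15 (SE 0.57, adjusted p = 0.000633), or 10.4-fold, relative to L4. The change at Day 15 relative to Day 6 was -0.61 (adjusted p = 0.425). Leaving out the L4 array of replicate 2 gave -3.55 and -4.15. Of its 4 probe sets, 3 reached 4 at L4 and all of these were called lower at both adult ages, with changes between -1.48 and -2.77 at Day 6 and between -1.87 and -3.38 at Day 15. Among these 3, all but the main probe set had adult values under 4 throughout. The dimmest had L4 values of 4.72, 2.83 and 4.47, so its change rests on values near background. The fourth stood between 1.64 and 2.04 on all 9 arrays.

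The *noah* genes encode proteins with a zona pellucida domain, related to NompA of *Drosophila*, that belong to the apical matrix over the epidermis. *noah-1* (C34G6.6) was the tested member with the smallest change between L4 and Day 6, with log2 values of 8.98, 8.39 and 9.64 on the L4 arrays, 9.01, 8.50 and 8.59 at Day 6, and 8.11, 7.42 and 8.45 at Day 15. The L4 arrays overlapped with those of both adult ages. The change at Day 6 relative to L4 was -0.30 (SE 0.36, adjusted p = 0.478), and it was 0.02 without L4 replicate 3. At Day 15 *noah-1* fell by 1.01 relative to L4 (SE 0.36, adjusted p = 0.032), or 2.01-fold, just past the 2-fold limit. That call was lost without L4 replicate 1, L4 replicate 3, Day 15 replicate 1 or Day 15 replicate 2 (adjusted p = 0.0581, 0.11, 0.0598 and 0.116), and held without L4 replicate 2, with a change of -1.32. The Day 15 arrays all lay below the Day 6 arrays, by 0.71 on average (adjusted p = 0.148), which was not called. The other probe set of *noah-1* lay between 3.47 and 4.29 on all 9 arrays, under a mean of 4 at every age, and was not tested.

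*noah-2* (F52B11.3) had log2 values of 5.07, 4.27 and 6.00 on the L4 arrays, 4.04, 4.18 and 4.04 at Day 6, and 3.59, 3.94 and 3.18 at Day 15. The ages did not overlap, but the highest Day 6 array and L4 replicate 2 were close. *noah-2* fell by 1.03 at Day 6 relative to L4 (SE 0.40, adjusted p = 0.0443), or 2.04-fold. This call held without L4 replicate 2, with a change of -1.45 (adjusted p = 0.0019), but was lost when any other single array was left out (adjusted p between 0.0533 and 0.132) and with the replicate number as a block (adjusted p = 0.0742). At Day 15 *noah-2* fell by 1.54 relative to L4 (SE 0.40, adjusted p = 0.00683), at least 2.16-fold lower, a call that held when any single array was left out but not with the methods' t-test after adjustment (adjusted p = 0.0735). The change at Day 15 relative to Day 6 was -0.52 (adjusted p = 0.328).

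**Figure D2:**
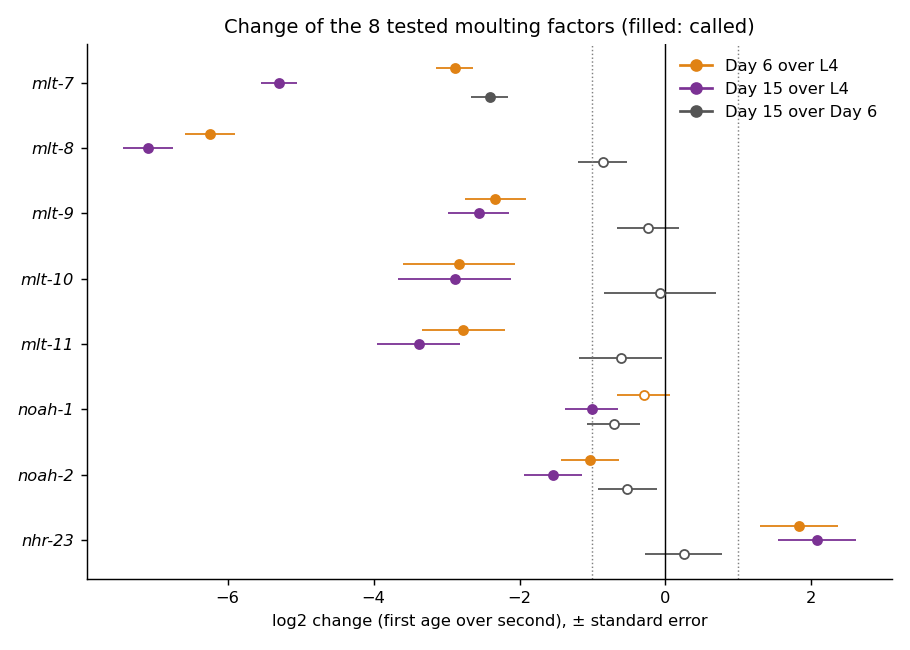
Log2 change (horizontal axis, bars give ± 1 standard error of the limma fit) of the 8 tested moulting factors in the 3 comparisons, with filled points for called changes and dotted lines at 2-fold. The comparisons with L4 lie at or below -1 for all but *noah-1* at Day 6 and *nhr-23*, while at Day 15 over Day 6 only *mlt-7* is called.

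The nuclear hormone receptor gene *nhr-23* (C01H6.5), an epidermal regulator that is needed for moulting, ran the other way. Its log2 values were 5.05, 7.65 and 6.36 on the L4 arrays, 8.13, 8.25 and 8.17 at Day 6, and 8.44, 8.30 and 8.57 at Day 15. All adult arrays lay above all L4 arrays, and L4 replicate 2 was the closest to them. *nhr-23* rose by 1.83 at Day 6 relative to L4 (SE 0.53, adjusted p = 0.0133), or 3.56-fold, and by 2.08 at Day 15 relative to L4 (SE 0.53, adjusted p = 0.00656), or 4.24-fold. The changes were 2.48 and 2.73 without L4 replicate 2, and 1.18 and 1.43 without L4 replicate 1. The methods' t-test, at unadjusted p = 0.0716 and 0.0508, called neither. At Day 15 relative to Day 6 the change was 0.25 (adjusted p = 0.739).

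A second probe set of *nhr-23* was dimmer, under 4 on all L4 arrays and on Day 6 replicate 3. It had log2 values of 2.57, 3.81 and 2.90 on the L4 arrays, 4.09, 4.43 and 3.65 at Day 6, and 5.07, 5.41 and 5.0 at Day 15. The Day 15 arrays lay above all others, and those of Day 6 overlapped with L4 replicate 2. In the fit of all probe sets its change was 0.96 at Day 6 relative to L4 (adjusted p = 0.0298), under the 2-fold limit, 2.07 at Day 15 relative to L4 (adjusted p = 0.00051) and 1.10 at Day 15 relative to Day 6 (adjusted p = 0.026). The probe sets therefore differed in whether *nhr-23* was called between Day 6 and Day 15. The changes of the second rest partly on values near background, and it was not refitted with values under 4 set to 4. Both probe sets are marked in the array's naming as matching more than 1 transcript. In its qRT-PCR methods the study used *nhr-23* as 1 of 2 genes against which the normalizer *tba-1*, a tubulin gene, was checked across ages. On the arrays *tba-1* changed by 0.42 at Day 6 and 0.62 at Day 15 relative to L4 (adjusted p = 0.0594 and 0.0114) and was not called. These are changes of *tba-1* alone, whereas the methods normalized it to *nhr-23*, whose brighter probe set changed by 1.83 and 2.08. The level of *tba-1* relative to *nhr-23* was not tested on the arrays. The other gene, *act-1*, had no probe set of its own.

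*nhr-25* (F11C1.6), the gene of the Ftz-F1 related receptor, stayed under a mean of 4 at every age. Its brighter probe set had log2 values of 3.79, 2.74 and 3.50 on the L4 arrays, 2.76, 2.97 and 3.21 at Day 6, and 2.97, 3.10 and 2.58 at Day 15. The ages overlapped. The dimmer probe set lay between 1.75 and 2.26 on all arrays, and a difference between ages was not detectable near this background.

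The L4 arrays differed more from each other in the moulting factors than in most genes. The median SD of the 8 tested members was 0.90 at L4, 0.10 at Day 6 and 0.33 at Day 15, beside 0.41, 0.18 and 0.22 over all genes tested. L4 replicate 2 was the lowest L4 array for 8 of the 9 members and the highest for *nhr-23*. Among all 10560 genes with an L4 mean of 4 or above, it was the lowest for 40% and the highest for 40.7%. Relative to the mean of the other L4 arrays, its value differed by -2.88 for *mlt-10*, -2.32 for *mlt-11*, -1.60 for *mlt-9*, -1.32 for *mlt-8*, -0.38 for *mlt-7* and 1.95 for *nhr-23*. L4 replicate 3 was the highest for 6 of the 9 members, beside 21.8% of the 10560 genes. Of the 9, *nhr-25* had an L4 mean under 4 and so is not among the 10560.

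**Figure D3:**
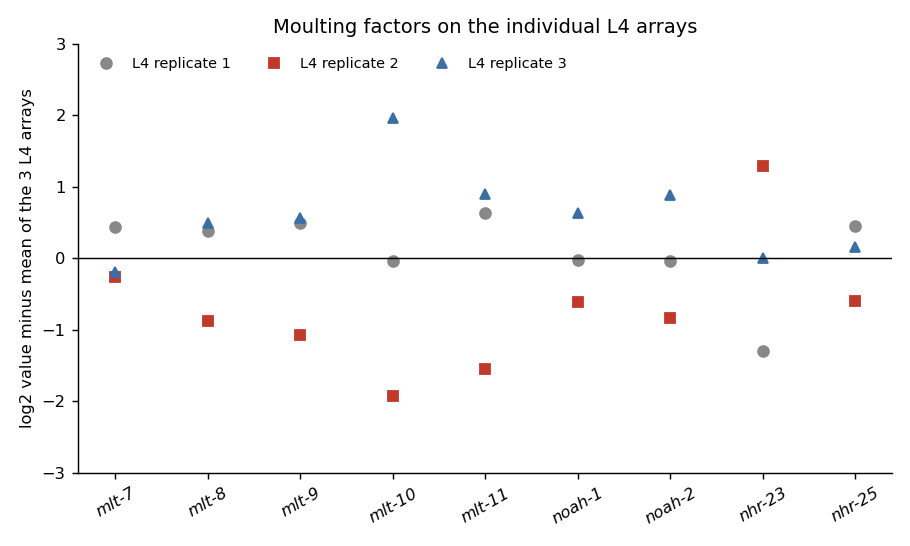
Log2 value of each moulting factor on the 3 L4 arrays, minus the mean of these arrays (vertical axis), with 1 symbol per array. L4 replicate 2 lies lowest for 8 of the 9 genes and highest for *nhr-23*, and the arrays lie furthest apart for *mlt-10*.

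Across the 9 arrays the mlt genes tracked each other, with Pearson correlations between 0.74 (*mlt-7* and *mlt-10*) and 0.98 (*mlt-9* and *mlt-11*), and *nhr-23* correlated with every other tested member between -0.59 (*noah-1*) and -0.94 (*mlt-9*). These correlations describe 9 points that fall mostly into larvae and adults, and all genes share the arrays. In the RefSeq annotation of assembly WBcel235, *mlt-10* and *mlt-8* lie on chromosome II with 4 protein-coding genes between them, and 958 lie between *mlt-8* and *mlt-7*.

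The genes with the pattern most like *mlt-10* over the 9 arrays were *cht-2*, named for chitinase, with r = 0.994, and *Y75B7AR.1*, *idpp-5*, *F13B12.4* and *F39D8.3*, with r between 0.988 and 0.992. *cht-2* had log2 values of 2.47 to 2.80 on the adult arrays and 4.63, 3.42 and 6.41 on the L4 arrays, and so shared the order of the L4 arrays with *mlt-10*. For *nhr-23* the closest were *pri-2*, a subunit of DNA primase, with r = 0.996, and *rnp-8*, a germline RNA-binding protein gene, *cyp-31A3*, *deps-1*, a P granule gene, and *F33E11.2*, each with r = 0.995. The log2 values of *pri-2* were 7.26, 10.20 and 8.69 on the L4 arrays, 10.92 to 11.12 at Day 6 and 11.43 to 11.46 at Day 15.

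Marker genes of several tissues moved with these results. The 11 epidermis markers averaged 8.65, 8.05 and 8.75 on the L4 arrays, 6.50 to 6.59 at Day 6 and 5.88 to 6.05 at Day 15. Of the 11, 5 fell and 1 rose at Day 6 and 7 fell at Day 15 relative to L4. Among those that fell were the cuticle collagen genes *rol-6* and *bli-1*, at least 127-fold and at least 34.8-fold lower at both adult ages. The lower mean at Day 6 rests largely on *rol-6* and *bli-1*, with changes of -7.95 and -6.6. *dpy-7*, *elt-1* and *ajm-1* fell at Day 6 by 2.37, 1.93 and 1.45, and *lin-26* rose by 1.14. *vab-10* (0.82), *elt-3* (-0.57), *mup-4* (-0.77), *che-14* (-0.7) and *sqt-3* were not called at Day 6. Of the 3 tested markers of seam cells, which are epidermal too, *egl-18* and *elt-6* rose by 1.43 and 1.74 at Day 6 and *grd-10* fell, and at Day 15 *elt-6* rose and *grd-10* fell. Markers of other tissues were also called lower. The 8 intestine markers averaged 11.12 to 11.39 at L4, 9.20 to 9.66 at Day 6 and 7.33 to 7.65 at Day 15, and 4 fell and 1 rose at Day 6 and 8 fell at Day 15 relative to L4. Of 5 body wall muscle markers, 3 fell at Day 6 and 5 at Day 15, and of 7 neuron markers, 2 and 4. The median change at Day 15 relative to L4 was -3.72 for intestine, -2.82 for body wall muscle, -1.13 for neurons and -2.25 for epidermis. Of 5 sperm markers, 4 fell at Day 6 and none was called at Day 15. Among all genes tested, 24.6% were called lower at Day 6 and 26.7% at Day 15. Of the 9 germline markers, 6 rose at Day 6 and 7 at Day 15 relative to L4, and none fell. The shares called higher among all genes tested were 29.3% at Day 6 and 32.3% at Day 15. *nhr-23* correlated with the 9 germline markers between 0.79 (*glh-1*) and 0.98 (*pgl-3*) across the arrays. *puf-5*, a gene of growing oocytes, stood between 11.82 and 12.68 on all adult arrays and at 7.25, 11.01 and 8.92 on the L4 arrays, the same order of L4 arrays as for *nhr-23*. The part of any tissue's content in the changes of the moulting factors was not tested.

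**Figure D4:**
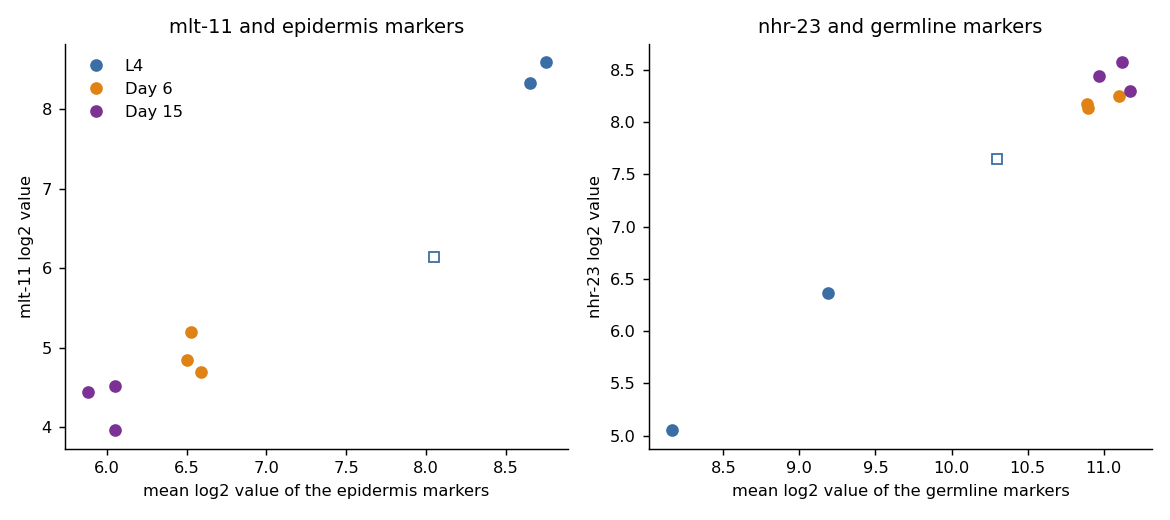
Left, *mlt-11* (vertical axis, log2 value) against the mean log2 value of the 11 epidermis markers, and right, *nhr-23* against that of the 9 germline markers, with 1 point per array and an open square for L4 replicate 2. In both panels the L4 arrays spread out and replicate 2 lies nearest to the adult arrays. The lower epidermis mean at Day 6 rests largely on *rol-6* and *bli-1*.

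Other genes of the moulting cycle were counted in lists drawn from general knowledge. Of 13 tested timers and regulators, 4 fell and 4 rose at Day 6 relative to L4, with a median change of 0.15, shares near the 24.6% lower and 29.3% higher among all genes tested. Without L4 replicate 3, 1 fell. The *period* homologue *lin-42* had log2 values of 5.90, 5.67 and 6.29 on the L4 arrays, 3.73, 3.22 and 3.48 at Day 6 and 3.36, 3.70 and 3.22 at Day 15, and fell by 2.48 at Day 6 and 2.53 at Day 15 relative to L4 (adjusted p = 2.14e-05 and 1.47e-05), at least 3.87-fold lower in both. The zinc finger gene *bed-3* was at least 2.76-fold lower at Day 6 (adjusted p = 0.0203). Its L4 values were 6.44, 2.90 and 5.96, so L4 replicate 2 lay near the Day 6 arrays, at 2.63 to 2.74. The NIMA-type kinase gene *nekl-3* fell by 1.23 (adjusted p = 0.00392). *myrf-2* and *nekl-2* both rose at Day 6 by 1.38. *mlt-4*, with an L4 mean under 4, was also called higher, but with values under 4 set to 4 the change is at least 1.59-fold, under the 2-fold limit. At Day 15 relative to L4, 8 fell and none rose, with a median of -1.93, beside 26.7% lower and 32.3% higher among all genes tested. They include the transcription factor genes *lin-29* (-2.75) and *blmp-1* (-2.74), *nekl-3* (-2.66) and *bed-3*, which was at least 2.76-fold lower.

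Several of these regulators were also called between the adult ages. At Day 15 relative to Day 6, 7 of the 13 fell and none rose, with a median of -1.07, beside 17% lower and 16.4% higher among all genes tested. *mlt-3*, which encodes an ankyrin repeat partner of the NEKL kinases, had values of 7.73, 7.86 and 7.54 at Day 15 and 9.98, 10.03 and 10.15 at Day 6, and fell by 2.34 (adjusted p = 6.75e-05). *mlt-2* fell by 2.09 (adjusted p = 0.000686) and *lin-29* by 1.88 (adjusted p = 0.000123). All 3 had arrays at Day 15 that lay below every Day 6 array, as had 33.5% of all genes tested.

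Among 10 proteases and protease inhibitors, 5 fell and 2 rose at Day 6 relative to L4 (median -1.38, beside 24.6% lower and 29.3% higher among all genes), and 4 fell and none rose at Day 15 (median -0.59, beside 26.7% and 32.3%). The Kunitz-type inhibitor gene *bli-5* had log2 values of 3.69 to 4.39 on all adult arrays and 11.65, 10.30 and 11.60 on the L4 arrays, a fall of 6.96 at Day 6 and 7.32 at Day 15 (adjusted p = 6.05e-07 and 2.4e-07), the second at least 144-fold. The astacin metalloprotease gene *nas-7* changed by -5.49 and -6.47, *nas-36*, an astacin that acts in shedding the cuticle, by -4.71 and -4.58, and *acn-1*, an inactive relative of angiotensin-converting enzyme, by -4.35 and -5.07, all called. L4 replicate 2 was the lowest L4 array for all 4 of these genes. *dpy-31* and *bli-4*, which process collagens, rose at Day 6 by 1.29 and 1.18, and *dpy-31* fell by 1.65 at Day 15 relative to Day 6 (adjusted p = 0.00109).

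Of 7 cuticle cross-linking enzymes and their partners, 3 fell and 1 rose at Day 6 relative to L4 (median -0.92), 6 fell and 1 rose at Day 15 relative to L4 (median -2.21), and 4 fell at Day 15 relative to Day 6, beside 24.6%, 26.7% and 17% lower among all genes tested. With other settings, 1 to 4, 3 to 6 and 1 to 6 were called lower. The prolyl 4-hydroxylase gene *phy-2* had values of 6.34, 5.96 and 5.59 at Day 15 and 9.06, 8.82 and 8.86 at Day 6, a fall of 2.95 (adjusted p = 0.000123). *tsp-15*, a tetraspanin gene that acts with the dual oxidase BLI-3, fell by 1.87 and *dpy-18*, a second prolyl 4-hydroxylase gene, changed by -1.70 in that comparison, both called. The member that rose was *skpo-1*, which like *mlt-7* encodes a peroxidase. It had log2 values of 7.15, 8.11 and 7.76 on the L4 arrays, 12.47, 12.56 and 12.40 at Day 6, and 11.84, 11.51 and 11.91 at Day 15, and rose by 4.80 and 4.08 relative to L4 (adjusted p = 8.64e-07 and 1.24e-06), 27.9-fold and 16.9-fold. The adult arrays of *skpo-1* all lay above its L4 arrays, whereas those of *mlt-7* all lay below.

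Genes of the epidermal precuticle, the transient matrix to which the NOAH proteins belong, were called in both directions, as genes were in general. Of 8 tested, 3 fell and 3 rose at Day 6 relative to L4 (median -0.37, beside 24.6% lower and 29.3% higher among all genes), and 3 fell and 2 rose at Day 15 (median -0.56, beside 26.7% and 32.3%). At Day 15, 1 rose without L4 replicate 3, Day 15 replicate 2 or Day 15 replicate 3. The fibrillin-related gene *fbn-1* rose by 2.24 at Day 6 and 1.65 at Day 15, and *egg-6*, a leucine-rich repeat gene, by 3.37 and 2.49, with *egg-6* at 5.77, 9.87 and 7.47 on the L4 arrays. *sym-1* and the lipocalin gene *lpr-3* fell at Day 6 by 1.27 and 1.17. *let-4*, with adult means under 4, was called lower at both adult ages, but with values under 4 set to 4 the change is at least 1.53-fold, under the 2-fold limit. *let-653*, which like the *noah* genes encodes a zona pellucida domain protein, was high at Day 6 alone, at 3.47, 3.35 and 3.12 at L4, 4.87, 5.56 and 5.28 at Day 6, and 3.33, 3.53 and 3.04 at Day 15. It rose at Day 6 relative to L4 (adjusted p = 8.96e-05) and fell at Day 15 relative to Day 6 (adjusted p = 0.000133), in both by at least 2.36-fold.

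Of 34 cuticlin and cuticlin-like genes on the array, 16 were tested, and 7 fell and 3 rose at Day 6 relative to L4 (median -1.26), beside 24.6% lower and 29.3% higher among all genes tested. The 3 that rose, *cut-6*, *cutl-10* and *cutl-25*, have L4 means under 4 and were at least 1.53-, 1.35- and 1.42-fold higher, under the 2-fold limit, and with values under 4 set to 4 before the fit 0 rose and 6 fell. *cut-2*, a structural gene of the insoluble cuticle, had log2 values of 2.94 to 3.37 on all adult arrays and 11.95, 10.07 and 12.22 on the L4 arrays, at least 170-fold lower at both adult ages (adjusted p = 1.49e-06 and 1.03e-06). *cut-4* was at least 38.1-fold lower at both. Between the adult ages, at Day 15 relative to Day 6, 2 fell and 1 rose, beside 17% lower and 16.4% higher among all genes tested. With values under 4 set to 4, 0 fell. Without L4 replicate 2, 2 rose.

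Only 1 of the 10 *mltn* genes on the array, which are named for their relation to MLT-10, was tested. *mltn-9* had log2 values of 3.17, 3.00 and 3.46 on the L4 arrays, 7.16, 7.45 and 7.75 at Day 6, and 3.37, 3.39 and 2.85 at Day 15. It was thus above background only at Day 6, where *mlt-10* itself was at background. *mltn-9* rose by 4.24 at Day 6 relative to L4 (adjusted p = 1.15e-06) and fell by 4.25 at Day 15 relative to Day 6 (adjusted p = 2.22e-06), in both by at least 11-fold. The difference between *mltn-9* and *mlt-10* was not tested.

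Of 4 sterol uptake and signalling genes, 1 fell and 1 rose at Day 6 relative to L4, and 1 fell at Day 15 relative to L4. These counts lie near the shares of all genes tested, 24.6% lower and 29.3% higher at Day 6 and 26.7% lower at Day 15. *dab-1*, the adaptor of the sterol receptor LRP-1, rose by 1.28 at Day 6 relative to L4 (adjusted p = 0.00274) and fell by 1.45 at Day 15 relative to Day 6 (adjusted p = 0.0021). *let-767*, a steroid dehydrogenase-like gene, fell by 1.24 at Day 6 and 1.43 at Day 15 relative to L4 (adjusted p = 0.000702 and 0.000263).

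**Figure D5:**
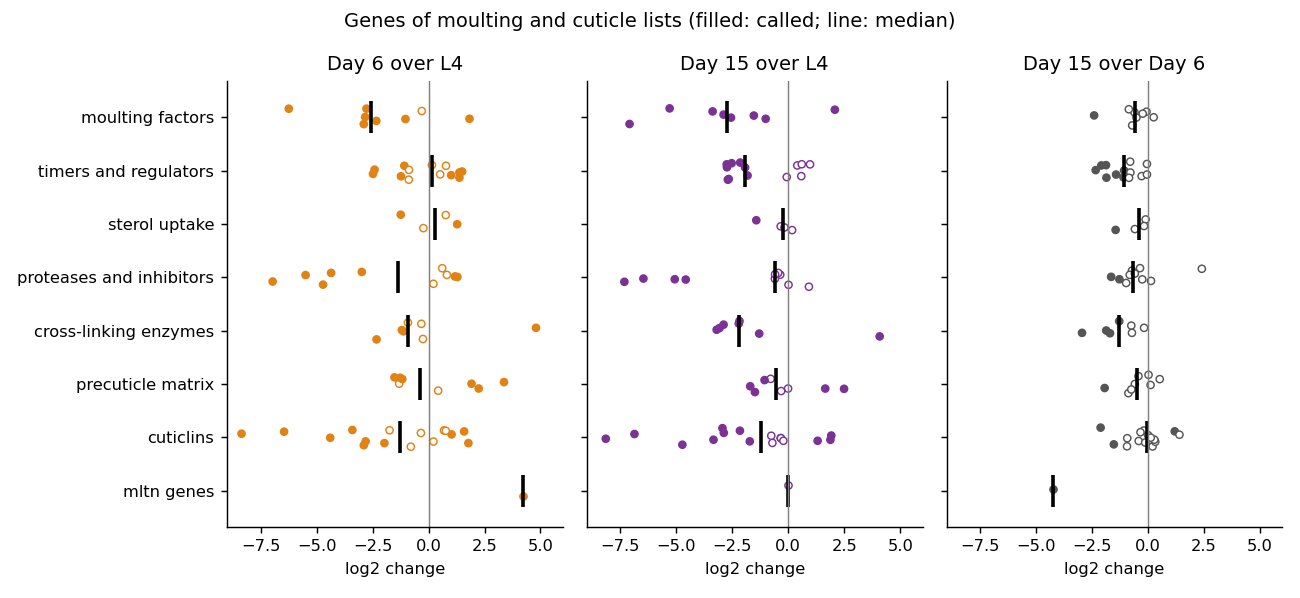
Log2 change (horizontal axis) of each tested gene of the moulting factors and of the 7 other lists in the 3 comparisons, with filled points for called genes and a black line at the median of a list. The moulting factors have medians of -2.55, -2.73 and -0.56, and the timers and regulators have medians of 0.15, -1.93 and -1.07.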

How the data were processed

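RNA of 9 whole-worm samples (3 per age, from independently propagated populations) was hybridised to GeneChip arrays of the *C. elegans* genome after amplification of 100 ng of total RNA. The authors normalized the scans with GCRMA and deposited log2 expression values per probe set. Their MAS5 present calls and mean-centring were not used. GCRMA shrinks dim probe sets towards background, so changes of low values are compressed. Versions of both are not given in the sources used here.

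Probe sets, of which 77 are controls, were joined to genes by the platform's annotation (20766 with 1 gene, 887 with several, 972 with none), and 20701 have their gene ID in RefSeq. A gene was represented by its brightest probe set (highest mean of all 9 arrays). Genes with a mean of 4 or above in at least 1 age were fitted with limma 3.58.1 in R 4.3.3 (lmFit, eBayes, 1 fit, 3 groups), which replaces the t-test of the methods. The procedure was tested on simulated data. Summaries used pandas 2.3.3 and numpy 2.4.6 under Python 3.11.15, and plots matplotlib 3.10.9.

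The members and lists were chosen with earlier results of these data known. Named are all members, up to 3 called genes per list, direction and comparison with the largest change, the 5 genes most correlated with *mlt-10* and with *nhr-23*, and the genes of the methods' qRT-PCR normalization. Alternative settings varied the filter, floor, threshold, scaling, test, variance model, probe set and arrays fitted, dropped each array in turn, and blocked on the replicate number.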

Additional observations from a re-analysis of the deposited data

How the results depend on the processing

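The numbers of moulting factors called, 6 lower and 1 higher at Day 6 relative to L4, 7 and 1 at Day 15 relative to L4, and 1 and 0 at Day 15 relative to Day 6, depended most on the probe set. With only probe sets not marked _s_at or _x_at, 3 fell and 0 rose at Day 6, 4 fell and 0 rose at Day 15 relative to L4, and 0 fell at Day 15 relative to Day 6, as *mlt-7*, *mlt-9*, *noah-2* and *nhr-23* then have no probe set that passes the filter. With a filter at 6 in place of 4, which tests fewer members, 3 fell at Day 6 and 4 at Day 15 relative to L4. The methods' t-test called 0 higher at both adult ages, adjusted or not, and 4 lower at Day 15 relative to L4 when adjusted. Leaving out each array in turn gave 5 to 6 lower at Day 6, 6 to 7 lower at Day 15 relative to L4 and 1 in each other non-zero count. One direction turned, that of *noah-1* at Day 6 relative to L4, which ranged over the arrays left out from -0.61 (without L4 replicate 2) to 0.02 (without L4 replicate 3). With the replicate number as a block, 5 fell at Day 6 relative to L4, since *noah-2* was lost (adjusted p = 0.0742), and no other member's call changed. The numbers do not clearly pair the arrays, as deviations of same-numbered arrays correlated between -0.0425 and 0.208. With each array's median subtracted, all changes relative to L4 moved up (*mlt-7* at Day 6 was -2.69 in place of -2.89), and neither *noah-2* at Day 6 (adjusted p = 0.0656) nor *noah-1* at Day 15 (adjusted p = 0.0569) was called. Counts of the other lists also depended on the settings. At Day 6 relative to L4, the numbers called lower and higher ranged over all alternatives from 1 to 6 and 1 to 5 for timers and regulators, 4 to 5 and 2 to 3 for proteases and inhibitors, 2 to 4 and 2 to 3 for the precuticle and 4 to 10 and 0 to 5 for cuticlins. The numbers called lower at Day 15 relative to L4 were 6 to 8, 3 to 5, 2 to 4 and 4 to 11 for these lists. Between the adult ages, 4 to 8 timers and regulators and 0 to 4 cuticlins were called lower. Of all such list counts, 61 moved by more than 1.5 times and 905 did not. Counts over all genes stayed within 1.5 times under every alternative. Values under 4 carry little signal over background, which limits *mlt-9*, *mlt-10*, *noah-2* and *nhr-25* in adults and *mlt-8* at Day 15. The same limit holds for the second probe set of *nhr-23* at L4 and for the dimmer probe sets of *mlt-11* in adults.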
